A study of Callithrix jacchus with 54 samples.

Results

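The T-box genes encode transcription factors that share 1 kind of DNA-binding domain and act mainly in the early mesoderm. TBXT (brachyury) marks the primitive streak and its first mesoderm and is also switched on in primordial germ cell (PGC) precursors of primates. TBX2 and TBX3 are closely related, act largely as repressors and respond to BMP signaling in many embryonic tissues. TBX4 and TBX5 are known from the limb buds, lateral plate and heart, TBX20 from the heart and lateral plate, and TBX6 from the paraxial mesoderm.

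These 7 genes, taken by symbol (TBXT, TBX2, TBX3, TBX4, TBX5, TBX6 and TBX20), were followed through the in vitro induction of PGC-like cells (cjPGCLCs) from embryonic stem cells of the common marmoset (cjESCs). All 7 were found among the 14812 genes of the expression table, and 6 of the 7 reached the level required for testing, a log2(TPM + 1) of at least 1.5 in at least 1 library. TBX5 did not. Their gene identifiers in the table are 100384957 (TBXT), 100411884 (TBX2), 100397791 (TBX3), 100411523 (TBX4), 100397050 (TBX5), 100393569 (TBX6) and 100385240 (TBX20). TPM is read abundance scaled to a fixed total per library and by transcript length, so levels of different genes can be set side by side.

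The series held 54 RNA-seq libraries in 27 groups of 2, all from the ESC line CMES40 with the reporters BLIMP1-tdTomato and NANOS3-eGFP. The TG+ line carried rtTA, tetO-BLIMP1, SOX17-GR and DD-TFAP2C, was kept in DK20FA medium, and gave 3 courses of 12, 24, 48 and 96 h. In the BLSE course the cells received BMP4, LIF, SCF and EGF with a Rock inhibitor, in SOX17 + BLSE enforced SOX17 was added, and in SOX17 + LSE the BMP4 was left out. SOX17-GR was switched on with dexamethasone, a glucocorticoid not listed for the BLSE course, so that SOX17 and dexamethasone cannot be told apart between SOX17 + BLSE and BLSE. The TG- line, labelled wild type apart from the reporters, was kept in PESFA medium and exposed for 24 h to activin A and the WNT agonist IM12 (pre-treated cjESCs). It then received the BLSE factors with the WNT inhibitor IWR1 (BLSE + IWR1), or with IWR1 and BMS493, an inverse agonist of the retinoic acid receptors (BLSE + IWR1 + BMS), for the same 4 times. cjPGCLCs of the BLSE + IWR1 condition were also taken at day 6 and after 20, 40 and 70 days in xrOvaries, aggregates with mouse gonadal somatic cells. TRA-1-60-positive cells were sorted from both kinds of cjESC and from the pre-treated cells. All cells were taken at 12, 24 and 48 h and in the BLSE condition at 96 h, and tdTomato-positive cells in the other conditions at 96 h, at day 6 and in the xrOvaries. All groups thus rest on 1 ESC line, and line, medium and pre-treatment cannot be told apart between the TG+ and TG- courses.

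Between 10146 and 12688 genes were above 0 per library, the 2 libraries of a group correlated with r between 0.977 and 0.994 across genes, and no 2 libraries were identical. Read depth is unknown, since the table holds only TPM. The labels were checked against SOX17 and PGC markers. SOX17 was at 164 and 168 TPM in SOX17 + BLSE at 12 h against 64.6 and 62.7 TPM in BLSE. NANOS3, a germ cell RNA-binding protein, reached 276 and 234 TPM with SOX17 in BLSE by 96 h, while BLSE alone gave 1.94 and 1.05 TPM. Both conditions used the line that carries SOX17-GR, and at 96 h only the SOX17 cells were tdTomato-sorted. These levels thus check the labels only in part. Differences were tested with limma on log2(TPM + 1) over all 54 libraries, and each adjusted p is limma's Benjamini-Hochberg value over the 11197 genes past the level minimum. A gene passed the test at an adjusted p under 0.01, and was called at more than 4-fold with a mean log2 level above 1.5 besides. Fold changes on this scale understate the change of genes of low level. In these bulk samples, fewer cells of a type and less RNA per cell cannot be told apart.

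TBXT was the most abundant of the 7 in 24 of the 27 groups. Its highest mean level was at day 6, with 607 and 714 TPM in the 2 libraries, rank 164 of the 14812 genes. The next mean levels were 615 TPM in SOX17 + LSE at 48 h and 575 TPM in BLSE + IWR1 at 96 h. From day 6 down to cjESCs in DK20FA, at 435 and 404 TPM, each group overlapped its neighbour in the order. At the other end stood cjESCs in PESFA at 79.9 and 52.7 TPM, pre-treated cjESCs at 63.8 and 48.8 TPM and BLSE at 48 h at 48.0 and 42.4 TPM. In both BLSE libraries at 96 h TBXT was listed at 0, the only group of the 27 in which it was. Of the 26 pairs of neighbours in its order, 21 overlapped.

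**Figure D1:**
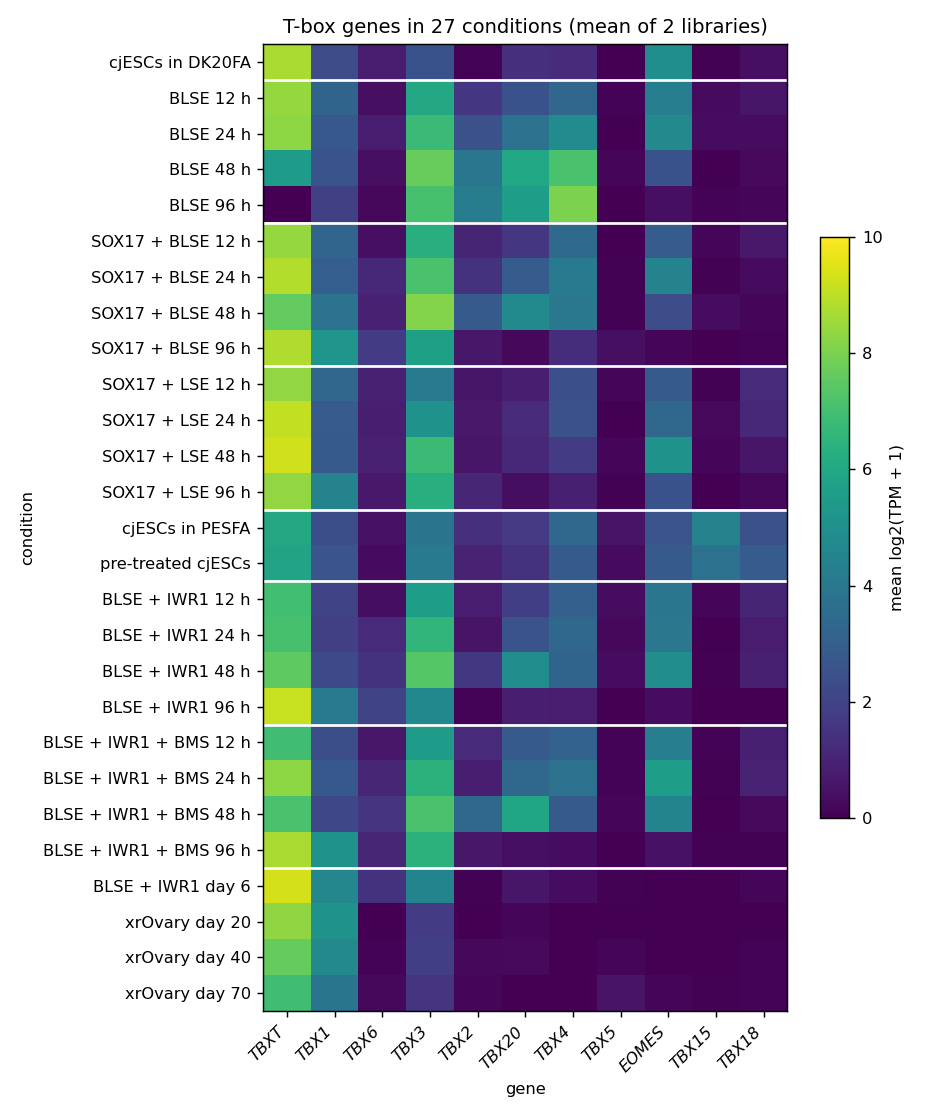
Mean log2(TPM + 1) of the 7 T-box genes and of TBX1, EOMES, TBX15 and TBX18 in the 27 groups, with 1 column per gene, 1 row per group of 2 libraries, and color for the level. TBXT is high in most rows and at 0 in BLSE at 96 h, where TBX4 has its highest level, and TBX5 stays near 0 throughout.

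TBX3 led in 2 groups, BLSE and SOX17 + BLSE at 48 h, and TBX4 in 1, BLSE at 96 h. TBX3 was highest in SOX17 + BLSE at 48 h, at 289.9 and 274 TPM, above BLSE at 48 h, at 203 and 206 TPM, with no overlap. Its lowest levels were in the xrOvaries, between 1.33 and 2.94 TPM in the 6 libraries, just below cjESCs in DK20FA. TBX4 was highest in BLSE at 96 h, at 233 and 293 TPM (rank 548 of all genes), followed without overlap by BLSE at 48 h, at 132 and 144 TPM, and BLSE at 24 h, at 27.3 and 27.2 TPM. Everywhere else its group mean was at most 16.4 TPM, and it was listed at 0 in all 6 xrOvary libraries. TBX2 and TBX20 were lower genes, with highest library values of 22.7 TPM for TBX2 in BLSE at 96 h and 68.7 TPM for TBX20 in BLSE + IWR1 + BMS at 48 h. TBX6 reached at most 3.52 TPM, in BLSE + IWR1 at 96 h, with a median of 0.735 TPM. It was past the level required for testing in 6 of the 54 libraries. TBX5 reached at most 0.76 TPM, with 29 of the 54 libraries at 0.

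The BLSE course asked what BMP4 and the other cytokines do to cjESCs without added SOX17. In it TBXT fell to 0 while TBX2, TBX3, TBX4 and TBX20 rose, and the order of the T-box genes turned over. TBXT stood at 393 and 297 TPM at 12 h, 281 and 344 TPM at 24 h, 48.0 and 42.4 TPM at 48 h, and 0 in both libraries at 96 h. The values at 12 and 24 h lay below those of the starting cjESCs, but the differences did not pass the test (adjusted p = 0.66 and 0.45). The difference first passed at 48 h, where the log2 fold change against the starting cjESCs was -3.19 ± 0.36 (SE, n = 2 against 2, limma adjusted p = 5.7e-09).

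TBX3 changed most at 12 h. From 3.78 and 6.01 TPM in cjESCs it stood at 66.8 and 61.9 TPM after 12 h, 133 and 93.3 TPM after 24 h, 203 and 206 TPM after 48 h, and 124 and 151 TPM after 96 h. Its log2 fold change was already 3.50 ± 0.29 at 12 h (adjusted p = 3.6e-11) and 5.15 at 48 h. TBX4 had the larger change at 96 h. It went from 1.0 and 1.89 TPM in cjESCs over 8.41 and 9.31 TPM at 12 h to 132 and 144 TPM at 48 h and 233 and 293 TPM at 96 h, a log2 fold change of 6.77 ± 0.35 at 96 h (adjusted p = 8.5e-18).

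TBX2 and TBX20 followed at lower levels. TBX2, at 0.13 and 0 TPM in cjESCs, was at 1.71 and 2.37 TPM at 12 h and 13.9 and 22.7 TPM at 96 h (log2 fold change 4.15, adjusted p = 9.9e-15). TBX20 was at 1.99 and 1.13 TPM in cjESCs, 19.7 and 7.34 TPM at 24 h, 62.7 and 62.9 TPM at 48 h, and 45.5 and 47.9 TPM at 96 h (log2 fold change 4.24 at 96 h). TBX6, a target of WNT signals in the presomitic mesoderm, stood at 0.15 and 0.14 TPM at 96 h against 0.67 and 0.74 TPM, which did not pass the test (adjusted p = 0.07).

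Of the 6 tested members, 2 were called higher at 12 h (TBX3 and TBX4), where 0.741% of all genes were called in either direction, and 3 at 24 h (with TBX20), where 1.22% were. At 48 h 4 were higher and 1, TBXT, was lower, against 3.38% of all genes, and at 96 h again 4 and 1, against 6.12%. The call of TBX4 at 12 h, just past 4-fold, rested on single libraries: 1 member was called without BLSE 12 h replicate 2, and 1 without cjESCs in DK20FA replicate 1.

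**Figure D2:**
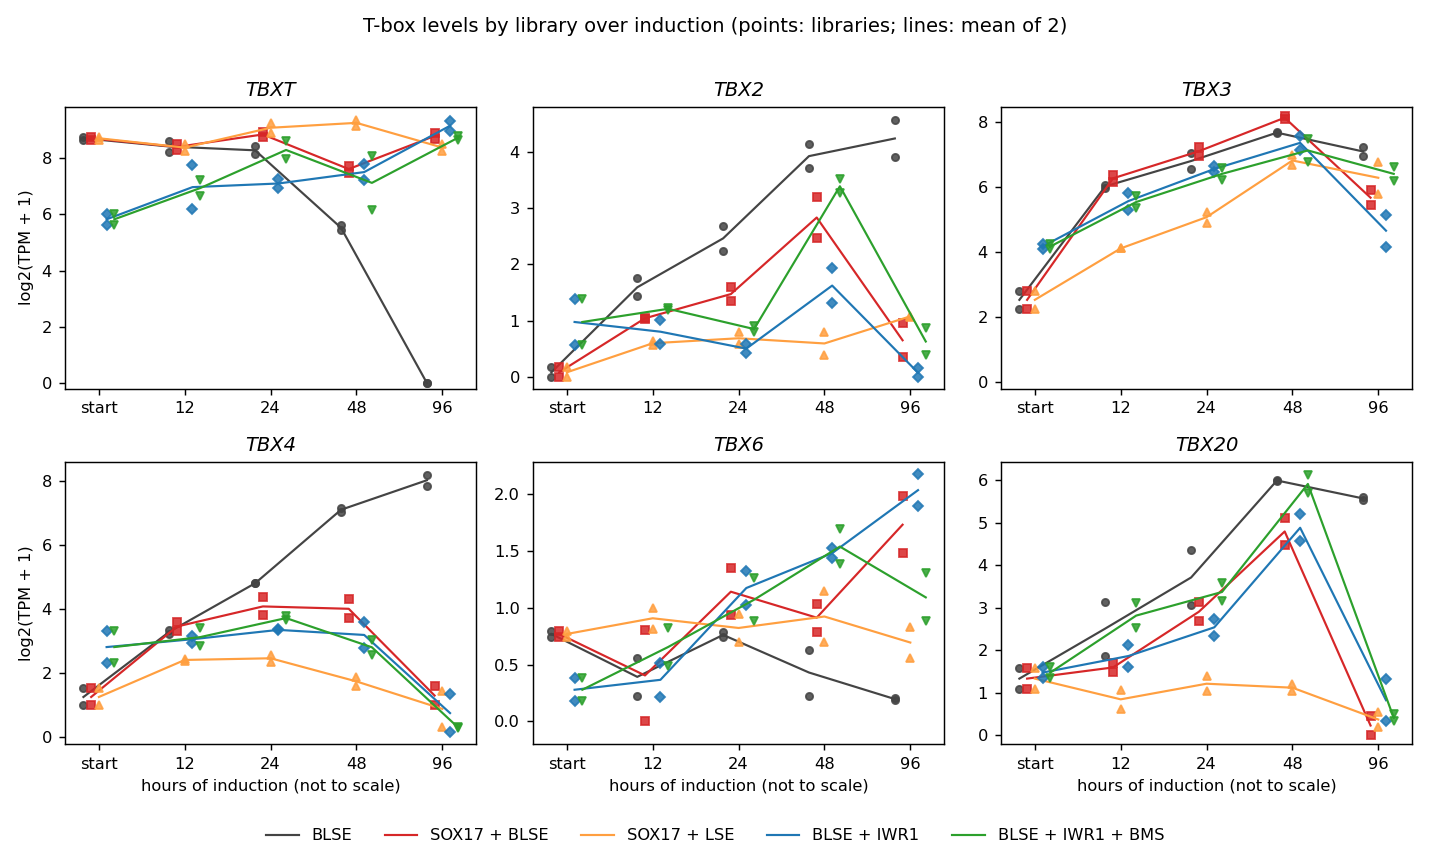
Level of the 6 tested T-box genes in each library over the 5 courses, as log2(TPM + 1) against hours of induction on an axis not to scale, with the starting cells of each course at the left. Points are the 2 libraries of a group and lines join their means. In BLSE TBXT runs to 0 at 96 h while TBX4 climbs to 233 and 293 TPM.

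By 96 h of BLSE, TBX4 made up 56.5% of the summed TPM of the 7 genes, and TBXT none of it. In the starting cjESCs TBXT had made up 98.0%, and at 48 h TBX3 led with 44.0%. The other genes of the fixed lists were counted in the same comparison at 96 h, where 6.12% of all genes were called. Of 21 tested primitive streak and mesendoderm genes 12 were called lower and 3 higher, with a median log2 fold change of -2.46 against -0.08 over all genes. Those lower included NODAL (-8.40), the TGF-beta ligand that patterns the streak, MIXL1 (-8.17), a streak homeobox factor, and CDX1 (-6.02), a posterior homeobox factor. Of 19 lateral plate, heart and limb genes 8 were higher and 1 lower, among the former PITX1 (7.11 ± 0.47), a hindlimb homeobox factor, MYL7 (4.94), an atrial myosin light chain, and ISL1 (4.51), a LIM-homeobox factor of cardiac and hindlimb progenitors. Of 18 BMP response and amnion genes 9 were higher and none lower, among them VTCN1 (5.25), a surface protein used as an amnion marker, and GATA2 (4.34), a zinc finger factor. Of 7 paraxial mesoderm genes 3 were lower, LFNG, HES7 and DLL3, all parts of the Notch segmentation clock, and none was higher. Of 11 tested mesenchyme genes 4 were higher and 2 lower, and the summed level of that list was 3937 and 3074 TPM at 96 h against 622 and 1018 TPM in the cjESCs. Of 6 pluripotent markers 4 were lower and none higher, at a summed 1473 and 1274 TPM against 5986 and 5146 TPM, and of 8 PGC markers 3 were lower and none higher, at 361 and 416 TPM against 4665 and 4055 TPM. The BLSE cells were unsorted and the cjESCs TRA-1-60-sorted, and the part of these cell types in the TBX4 and TBXT changes was not tested.

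Enforced SOX17, given with dexamethasone in the same medium, asked how the germ cell factor changes this course. At 96 h the cells with SOX17 had TBXT and next to no TBX4, TBX2 or TBX20. TBXT stood at 477 and 411 TPM, against 0 in both BLSE libraries, so that no fold is given (limma adjusted p = 2.7e-21). TBX4 stood at 2.06 and 1.01 TPM against 233 and 293 TPM, a log2 fold change of -6.73 (adjusted p = 4.4e-18). TBX20 was at 0.38 and 0 TPM against 45.5 and 47.9 TPM (-5.34, adjusted p = 1.5e-14), and TBX2 at 0.94 and 0.28 TPM against 13.9 and 22.7 TPM (-3.58, adjusted p = 2.2e-13).

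TBX3 differed less than the other members that were lower with SOX17. It was at 42.5 and 59.4 TPM with SOX17 and 124 and 151 TPM without, a log2 fold change of -1.43 ± 0.29 (adjusted p = 6.1e-05), which passed the test and was under 4-fold. TBX6 was higher with SOX17, at 2.96 and 1.79 TPM against 0.15 and 0.14 TPM (1.54, adjusted p = 3.1e-06). These levels are near the floor, and the library at 2.96 TPM is among the 6 that took TBX6 into testing. At this time 1 member was called higher and 3 lower, where 8.68% of all genes were called. The median of all genes was itself shifted by 0.24 on the log2 scale, and the SOX17 cells were tdTomato-sorted while the BLSE cells were not, so that SOX17, dexamethasone and the sort cannot be told apart at 96 h.

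At the earlier times all cells were taken in both conditions. No member was called at 12 h or at 24 h, where 0.161% and 0.518% of all genes were. At 12 h TBXT was at 361 and 316 TPM with SOX17 and 393 and 297 TPM without, and TBX4 at 11.3 and 8.94 TPM against 8.41 and 9.31 TPM, so both pairs overlapped. At 24 h TBXT stood at 491 and 431 TPM with SOX17 and 281 and 344 TPM without, which did not overlap but did not pass the test (log2 fold change 0.57, 95% interval -0.16 to 1.29, adjusted p = 0.33).

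At 48 h TBXT and TBX4 had parted. TBXT stood at 179 and 213 TPM with SOX17 and 48.0 and 42.4 TPM without, a log2 fold change of 2.09 ± 0.36 (adjusted p = 2.2e-05). TBX4 stood at 18.9 and 12.3 TPM with SOX17 and 132 and 144 TPM without, a log2 fold change of -3.09 ± 0.35 (adjusted p = 1.8e-08). These 2 members were called at 48 h, 1 in each direction, against 2.02% of all genes. TBXT, close to 4-fold, was no longer called under median-ratio scaling or without SOX17 + BLSE 48 h replicate 2, both of which left 1 member called.

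The other members did not split in this way at 48 h. TBX3 was at 289.9 and 274 TPM with SOX17 and 203 and 206 TPM without, and the difference of 0.46 (95% interval -0.12 to 1.04) did not pass the test. TBX20 was at 33.5 and 21.4 TPM with SOX17 and 62.7 and 62.9 TPM without (-1.20 ± 0.38, adjusted p = 0.017), which passed under median-ratio scaling (adjusted p = 0.00496) and quantile normalization (adjusted p = 0.00609). TBX2 was at 8.14 and 4.55 TPM with SOX17 and 12.1 and 16.6 TPM without (-1.09 ± 0.28, adjusted p = 0.0034). That difference did not pass with a pseudocount of 0.1 (adjusted p = 0.162), without SOX17 + BLSE 48 h replicate 2 (adjusted p = 0.141) or without BLSE 48 h replicate 2 (adjusted p = 0.0806).

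The change of the SOX17 effect from 12 h to 48 h was tested directly. It was -3.26 ± 0.50 for TBX4 (adjusted p = 5.1e-05, and 0.0169 with a pseudocount of 0.1) and 2.11 ± 0.50 for TBXT (adjusted p = 0.0083). The latter did not pass when any 1 of the 8 libraries was left out, with adjusted p from 0.0131 to 0.058.

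**Figure D3:**
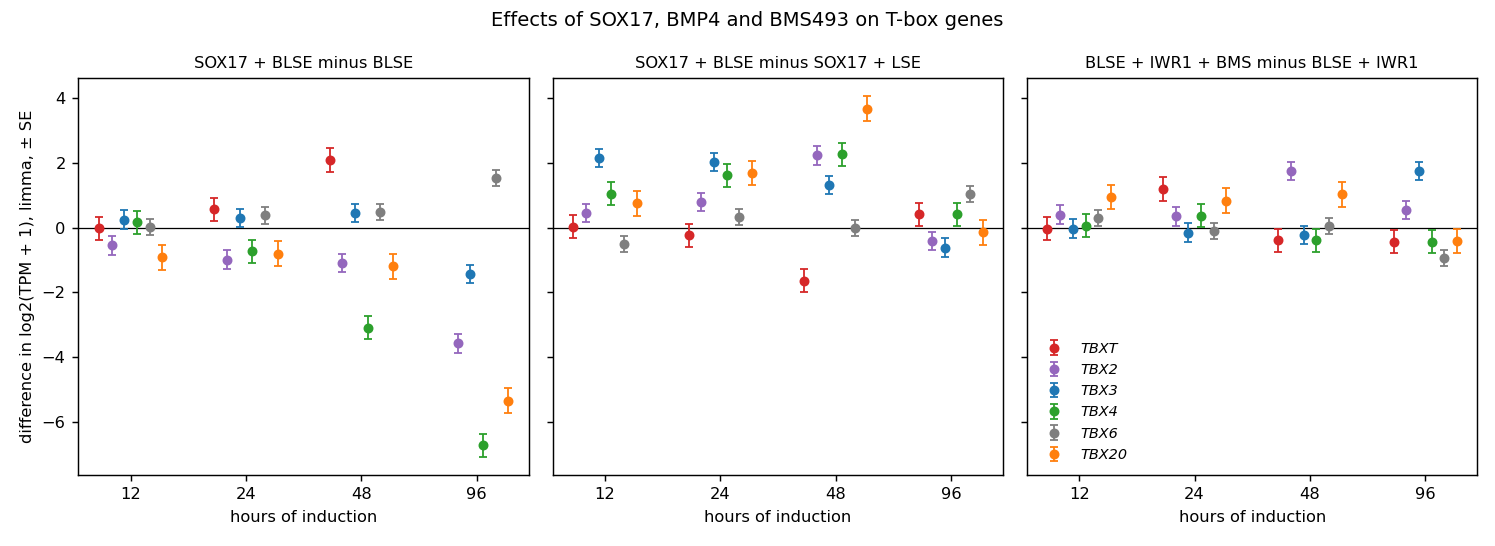
Differences in log2(TPM + 1) of the 6 tested T-box genes at 12, 24, 48 and 96 h for SOX17 + BLSE minus BLSE, SOX17 + BLSE minus SOX17 + LSE, and BLSE + IWR1 + BMS minus BLSE + IWR1. Points are limma estimates from 2 against 2 libraries and bars ± 1 SE, and TBXT at 96 h is left out of the first panel since BLSE was at 0. TBXT (2.09) and TBX4 (-3.09) lie on opposite sides of 0 at 48 h under SOX17.

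Within the SOX17 + BLSE course TBX2, TBX3, TBX4 and TBX20 were lower at 96 h than at 48 h, and TBXT ended near its starting level. Against the starting cjESCs the TBXT difference at 96 h was 0.08 (95% interval -0.64 to 0.80, adjusted p = 0.87). At 48 h TBXT was at 179 and 213 TPM, below the 435 and 404 TPM of the cjESCs. That difference did not pass in the main fit. It passed under median-ratio scaling (-1.20, adjusted p = 0.00574) and quantile normalization (-1.15, adjusted p = 0.00852). From 48 to 96 h TBXT changed by 1.18 (adjusted p = 0.0094), but leaving out any 1 of the 4 libraries gave adjusted p from 0.027 to 0.0786, and a pseudocount of 0.1, no filter, median-ratio scaling or no intensity trend from 0.0126 to 0.0263. Over the same step TBX2, TBX3, TBX4 and TBX20 were all called lower, by -2.18, -2.46, -2.71 and -4.56, against 2.21% of all genes, and only 2 of the 4 were called with a pseudocount of 0.1. The sort began between these times, and its part in the step was not tested.

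The genes around TBXT and TBX4 in the fixed lists differed as follows between SOX17 + BLSE and BLSE at 96 h. Of all genes 8.68% were called in this comparison, in which only the SOX17 cells were tdTomato-sorted. Of the lateral plate, heart and limb genes 9 were called lower and 1 higher, among the former FOXF1 (-6.57), a forkhead factor of the splanchnic mesoderm, and PITX1 (-6.13). Of 11 tested mesenchyme genes 7 were lower and none higher, with the matrix proteoglycans DCN (-7.30) and LUM (-5.73) in front. The summed level of the 12 mesenchyme genes in the table was 213 and 209 TPM with SOX17 and 3937 and 3074 TPM without, and its part in the TBX4 difference was not tested. Of the paraxial mesoderm genes 3 were higher and none lower, namely DLL1 (3.53), LFNG (3.41) and MESP2 (2.04), and of the 8 PGC markers 7 were higher. The PGC markers include the enforced SOX17 and PRDM1 (BLIMP1), whose tdTomato reporter served for the sort, so their count is no independent support. The streak list, to which TBXT is most often assigned, was split, with 2 higher and 4 lower and a median of 0.00 against 0.24 over all genes.

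The SOX17 + LSE course asked what BMP4 adds when SOX17 is given. TBX3 was the member with the earliest difference. At 12 h it was at 82.3 and 71.1 TPM with BMP4 and 16.4 and 16.3 TPM without, a log2 fold change of 2.16 ± 0.29 (adjusted p = 7.4e-06), and the only member called, against 0.0893% of all genes. At 24 h it stood at 151 and 125 TPM against 29.0 and 37.1 TPM (2.03, adjusted p = 7.7e-06), again the only member called, against 0.214% of all genes, and it was not called without SOX17 + BLSE 24 h replicate 1 or without SOX17 + LSE 24 h replicate 1. TBX4 (1.62, adjusted p = 0.003) and TBX20 (1.69, adjusted p = 0.004) passed the test at 24 h, but neither did when any 1 of the 4 libraries was left out, with adjusted p up to 0.101.

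At 48 h TBX2, TBX4 and TBX20 were called higher with BMP4, 3 members against 1.02% of all genes. TBX20 stood at 33.5 and 21.4 TPM with BMP4 and 1.05 and 1.31 TPM without (3.67, adjusted p = 7.3e-09). TBX2 stood at 8.14 and 4.55 TPM against 0.74 and 0.32 TPM (2.23, adjusted p = 2.7e-07), and TBX4 at 18.9 and 12.3 TPM against 2.68 and 2.08 TPM (2.27, adjusted p = 1.3e-05). Without SOX17 + BLSE 48 h replicate 1 only 1 member was called. TBX3 was at 289.9 and 274 TPM against 125 and 101 TPM (1.32 ± 0.29, adjusted p = 0.0011). That difference did not pass without SOX17 + BLSE 48 h replicate 1 (adjusted p = 0.0201) or replicate 2 (adjusted p = 0.0105), or without SOX17 + LSE 48 h replicate 2 (adjusted p = 0.0326).

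TBXT went the other way. At 48 h it was at 179 and 213 TPM with BMP4 and 570.2 and 659 TPM without, a log2 fold change of -1.65 ± 0.36 (adjusted p = 0.0011), which did not pass without SOX17 + BLSE 48 h replicate 1 (adjusted p = 0.0262) or without SOX17 + LSE 48 h replicate 2 (adjusted p = 0.0225). By 96 h, with both conditions tdTomato-sorted, no member was called, against 0.768% of all genes, and the TBXT difference was 0.41 (95% interval -0.31 to 1.13). TBX6 passed the test at 96 h (1.04, adjusted p = 0.0042), but not with a pseudocount of 0.1 (adjusted p = 0.106), without SOX17 + BLSE 96 h replicate 1 (adjusted p = 0.112), or without SOX17 + LSE 96 h replicate 1 (adjusted p = 0.0681) or replicate 2 (adjusted p = 0.0148).

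TBX3 rose in the absence of BMP4 too. Against the starting cjESCs its log2 fold change in SOX17 + LSE was 1.58 at 12 h, 2.55 at 24 h, 4.29 at 48 h and 3.76 at 96 h, with adjusted p from 0.00013 at 12 h down to 7.6e-14 at 48 h. The 12 h value did not pass without cjESCs in DK20FA replicate 1 (adjusted p = 0.0133). The change of the BMP4 effect from 12 h to 48 h was 2.92 ± 0.54 for TBX20 (adjusted p = 0.00095, and 0.137 with a pseudocount of 0.1), 1.79 ± 0.40 for TBX2 (adjusted p = 0.0066), -0.84 for TBX3 (adjusted p = 0.35) and -1.67 for TBXT (adjusted p = 0.062). The TBX2 value did not pass with a pseudocount of 0.1 (adjusted p = 0.153), under median-ratio scaling (adjusted p = 0.0121) or quantile normalization (adjusted p = 0.0158), or in 7 of the 8 fits that left out 1 library, with adjusted p from 0.0119 to 0.0917. TBX20 did not pass without SOX17 + BLSE 48 h replicate 1 (adjusted p = 0.0145).

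Between SOX17 + BLSE and SOX17 + LSE at 48 h 1.02% of all genes were called. Among the fixed lists at 48 h, 6 BMP response and amnion genes were called higher with BMP4 and none lower, with a median of 1.57 against 0.00 over all genes. They included the homeobox factors DLX5 (4.44) and MSX1 (3.68) and TFAP2A (3.07), an AP-2 factor. Of the primitive streak genes 8 were lower and 1 higher, with MIXL1 (-4.69) and NODAL (-3.55) among the former. Of the lateral plate, heart and limb genes only ISL1 (2.41) was called.

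The starting cells of the TG- courses held different T-box levels from those of the TG+ courses. TBXT was lower in PESFA than in DK20FA, at 79.9 and 52.7 TPM against 435 and 404 TPM (-2.67 ± 0.36, adjusted p = 3.9e-07), and TBX4 was higher, at 6.65 and 12.5 TPM against 1.0 and 1.89 TPM (2.08 ± 0.35, adjusted p = 2.5e-05). These 2 were called, 1 in each direction, where 2.04% of all genes were, and 1 was called without cjESCs in PESFA replicate 2 or without cjESCs in DK20FA replicate 1. TBX2 (1.25) and TBX3 (1.31) also passed the test, but neither passed in every fit that left out a library, with adjusted p up to 0.0227 for TBX2 and 0.033 for TBX3. Mesenchyme genes moved with this difference: 6 of them were called higher in PESFA and none lower, led by the collagens COL3A1 (5.69) and COL1A1 (4.3), and the summed mesenchyme level was 4181 and 3571 TPM against 622 and 1018 TPM. The cjESCs were grown on mouse embryonic fibroblasts, and the part of mesenchymal RNA in the TBX4 difference was not tested. The IM12 and activin A pre-treatment called no member and 0.0357% of all genes, and TBXT differed by -0.22 ± 0.36.

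In the BLSE + IWR1 condition, the study's cytokine route to cjPGCLCs without transgenes, TBXT rose to 96 h, and TBX3 and TBX20 rose and fell. TBXT stood at 216 and 71.6 TPM at 12 h, 152 and 123 TPM at 24 h, 149 and 219.9 TPM at 48 h, and 504 and 647 TPM at 96 h. At 12 h its 2 libraries lay far apart, and their summed primitive streak levels were 777 and 362 TPM. Against the pre-treated cjESCs the log2 fold change of TBXT was 1.68 at 48 h (adjusted p = 0.00038), which did not pass without BLSE + IWR1 48 h replicate 2 (adjusted p = 0.0149) or without pre-treated cjESCs replicate 2 (adjusted p = 0.0143), and 3.33 ± 0.36 at 96 h (adjusted p = 7.9e-10).

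TBX3 was at 16.2 and 18.1 TPM in the pre-treated cjESCs, 56.3 and 38.8 TPM at 12 h, 142 and 191 TPM at 48 h and 17.1 and 34.6 TPM at 96 h. TBX20 was at 1.55 and 2.04 TPM, 22.6 and 35.9 TPM at 48 h and 1.5 and 0.26 TPM at 96 h. These 2 were the members called at 48 h, by 3.19 (adjusted p = 3.9e-11) and 3.41 (adjusted p = 6.8e-09), against 2.48% of all genes. TBX4 did not follow them: it was at 4.04 and 8.96 TPM before and 5.89 and 11.3 TPM at 48 h, a difference of 0.38 (95% interval -0.34 to 1.1).

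At 96 h TBXT was called higher than in the pre-treated cells and TBX4 lower, 2 members against 5.88% of all genes. TBX4 stood at 1.57 and 0.12 TPM (-2.06, adjusted p = 7.9e-06), close to 4-fold, and only 1 member was called without BLSE + IWR1 96 h replicate 2, without pre-treated cjESCs replicate 2 or with a pseudocount of 0.1. The summed mesenchyme level was 2992 and 5447 TPM in the pre-treated cells and 372 and 437 TPM at 96 h. Its part in the TBX4 difference was not tested. TBX6 was at 2.73 and 3.52 TPM against 0.30 and 0.13 TPM (1.76, adjusted p = 3.7e-07). These levels are near the floor, and both 96 h libraries are among the 6 that took TBX6 into testing. From 48 to 96 h TBX3, TBX4 and TBX20 were called lower (-2.71, -2.44 and -4.06), 3 members against 4.49% of all genes, and TBXT rose by 1.65 (adjusted p = 0.00025, and 0.0127 without BLSE + IWR1 48 h replicate 1). As in the SOX17 + BLSE course, the sort began between the 2 times.

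Against the BLSE course, which differed from it in line, medium and pre-treatment besides IWR1, the BLSE + IWR1 cells at 48 h had less TBX4 and TBX2. TBX4 was at 5.89 and 11.3 TPM against 132 and 144 TPM (-3.91, adjusted p = 9.1e-11) and TBX2 at 2.81 and 1.5 TPM against 12.1 and 16.6 TPM (-2.29, adjusted p = 5.8e-08), 2 members called lower against 2.38% of all genes, and 1 called without BLSE + IWR1 48 h replicate 2. TBXT was higher, at 149 and 219.9 TPM against 48.0 and 42.4 TPM (1.98, adjusted p = 3.9e-05), just under 4-fold. For TBX3 the difference was -0.31 (95% interval -0.89 to 0.27), and TBX20 gave -1.11 (adjusted p = 0.023). At 96 h 1 member, TBXT, was called higher and TBX2, TBX3, TBX4 and TBX20, 4 members, lower, against 8.55% of all genes. The lateral plate list held 4 genes called lower at 48 h and none higher, with PITX1 (-4.18) and FOXF1 (-3.34) among them, and the mesenchyme list 5 lower and none higher.

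The SOX17 route and the cytokine route were set side by side at 96 h, both sorted for tdTomato. No member was called between them, where 0.572% of all genes were. TBXT differed by 0.37 (95% interval -0.36 to 1.09), and TBX3 was at 17.1 and 34.6 TPM with IWR1 and 42.5 and 59.4 TPM with SOX17 (-1.02, adjusted p = 0.015, and 0.00267 without BLSE + IWR1 96 h replicate 2).

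**Figure D4:**
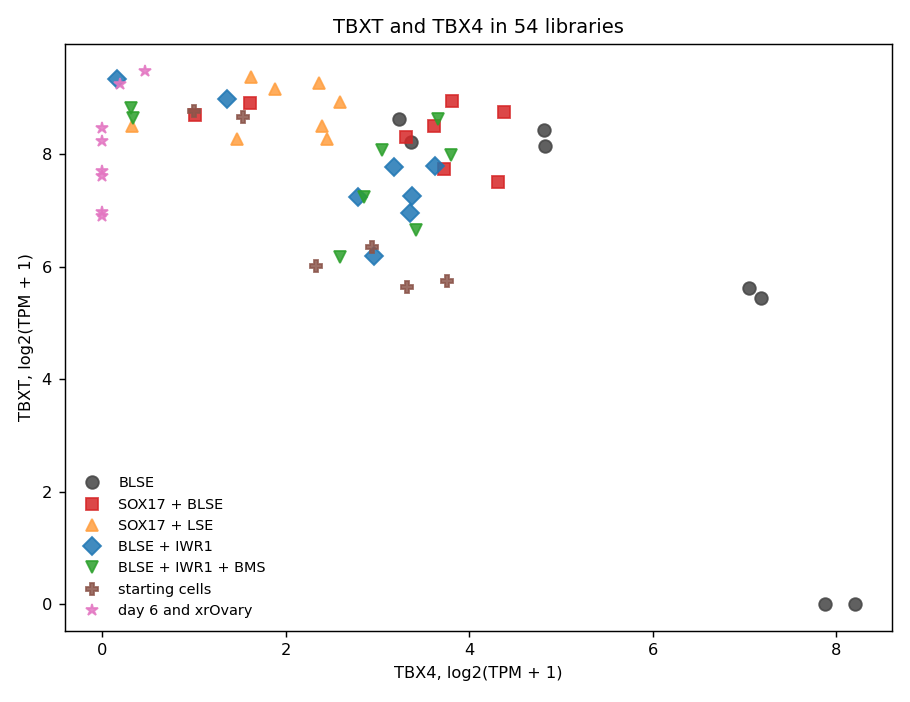
TBXT (vertical) against TBX4 (horizontal) in each of the 54 libraries, both as log2(TPM + 1), with a color and symbol for each course, the starting cells, and the day 6 and xrOvary cells. The BLSE libraries run from the upper left at 12 h to the lower right at 96 h, and those of the other courses stay at 19.8 TPM of TBX4 or less.

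BMS493 on top of IWR1 asked what retinoic acid receptors contribute. At 24 h TBXT stood at 391 and 251 TPM with BMS493 and 152 and 123 TPM without, which did not overlap and did not pass the test (1.19, adjusted p = 0.197). TBX2 was the only member that passed the test at 48 h, at 8.62 and 10.4 TPM with BMS493 and 2.81 and 1.5 TPM without (1.76 ± 0.28, adjusted p = 6.1e-05). It was under 4-fold, so that no member was called, against 0.241% of all genes, and with a pseudocount of 0.1 the adjusted p was 0.0211. Without BLSE + IWR1 48 h replicate 1, 1 member was called. TBX20 stood at 51.2 and 68.7 TPM against 22.6 and 35.9 TPM, without overlap (1.03, adjusted p = 0.07). The TBXT libraries with BMS493 lay far apart, at 269 and 71.2 TPM, as did their summed primitive streak levels, at 2172 and 374 TPM, and the difference from BLSE + IWR1 was -0.38 (95% interval -1.11 to 0.34). TBX4 differed by -0.39 (95% interval -1.11 to 0.33), at 7.28 and 5.0 TPM against 5.89 and 11.3 TPM. The summed mesenchyme level was 1241 and 1438 TPM with BMS493 and 410.2 and 432 TPM without, and its part in the TBX2 difference was not tested.

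At 96 h the sorted cells differed in TBX3. It was at 98.2 and 72.3 TPM with BMS493 and 17.1 and 34.6 TPM without (1.75 ± 0.29, adjusted p = 0.00039), and passed neither without BLSE + IWR1 + BMS 96 h replicate 1 (adjusted p = 0.0368) nor without BLSE + IWR1 96 h replicate 1 (adjusted p = 0.0333). No member was called, against 0.0357% of all genes, and 1 was without BLSE + IWR1 96 h replicate 2. The change of the BMS493 effect from 12 h to 48 h passed the test for no member.

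From day 6 into the xrOvary TBX3 fell, and TBXT was lower at each later time by steps that did not pass the test. TBX3 went from 17.8 and 26.1 TPM at day 6 to 2.5 and 2.18 TPM at day 20 (-2.76 ± 0.29, adjusted p = 1.2e-09), the 1 member called, against 2.30% of all genes. TBX6, at 1.92 and 1.54 TPM at day 6, was listed at 0 in both libraries of day 20. TBXT was at 298 and 354 TPM at day 20 (-1.02, 95% interval -1.74 to -0.29, adjusted p = 0.028), 205 and 195 TPM at day 40 (-0.70, adjusted p = 0.25) and 119 and 124 TPM at day 70 (-0.72, adjusted p = 0.35). The 4 time points did not overlap in TBXT, and it still ranked 1082 of all genes at day 70. Only neighbouring times were compared, and the whole fall from 607 and 714 TPM at day 6 to day 70 was not tested. TBX2 stayed at or below 0.32 TPM in the 6 xrOvary libraries. Of the BMP response and amnion genes 7 were called lower from day 6 to day 20 and none higher, with a median of -1.49, among them GATA3 (-5.98) and GATA2 (-5.16). The 6 gonadal somatic markers in the table summed to at most 4.4 TPM in the xrOvary libraries.

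**Figure D5:**
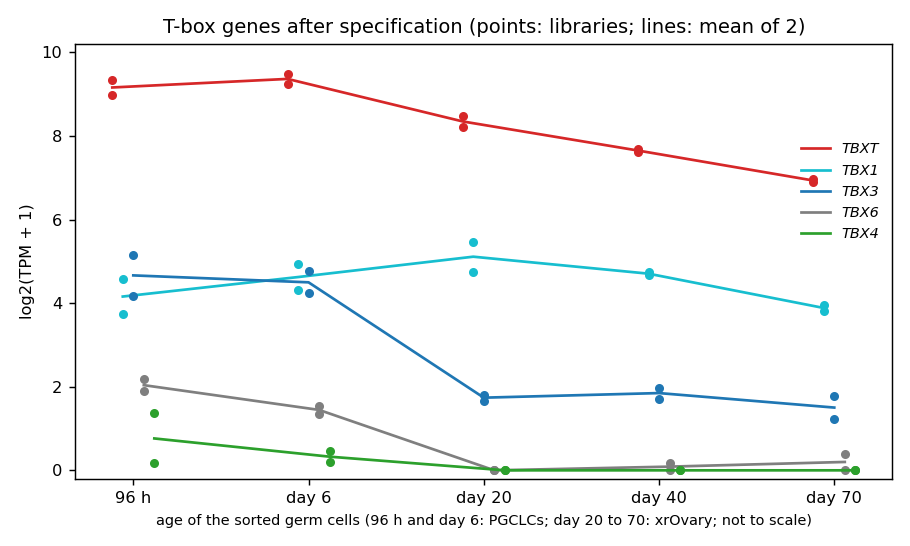
Levels of TBXT, TBX1, TBX3, TBX6 and TBX4 as log2(TPM + 1) in BLSE + IWR1 cells at 96 h and day 6 and in xrOvary cells at days 20, 40 and 70, on a time axis not to scale. Points are libraries and lines join the means of 2. TBXT is lower at each time from day 6 on, and TBX3 lies between 1.33 and 2.94 TPM from day 20 on.

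Of 10 other T-box genes looked for, 7 were in the table, and TBR1, TBX10 and TBX22 were not analysed here. EOMES, the T-box factor of the streak and endoderm, was at 30.7 and 30.0 TPM in cjESCs in DK20FA and 0 and 0.73 TPM in BLSE at 96 h, called lower as TBXT was. Unlike TBXT it was also called lower in SOX17 + BLSE at 96 h (-4.80), and it was listed at 0 in the libraries from day 6 to day 40. TBX1, a pharyngeal T-box factor, reached 36.8 and 35.0 TPM at 96 h with SOX17 in BLSE against 2.12 and 3.44 TPM without it (3.31), and kept 13.1 and 14.4 TPM at day 70. TBX15, known from limb and trunk mesenchyme, stood at 21.1 and 21.0 TPM in PESFA and 0 and 0.1 TPM in DK20FA. It was at most 0.48 TPM outside the PESFA and pre-treated cells. Only the 4 libraries of these cells took it past the level required for testing, so no p is given for it. TBX18 stood at 5.59 and 3.70 TPM in PESFA and 3.90 and 10.7 TPM in the pre-treated cells. TBX21 reached at most 2.31 TPM, and MGA and TBX19 did not reach the level required for testing.

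Over the 27 group means of log2(TPM + 1), which share lines, starting cells and sorts, TBXT correlated with TBX4 at r = -0.66, with TBX2 at -0.65, with TBX20 at -0.52 and with TBX3 at -0.14. BLSE at 96 h, where TBXT was at 0 and TBX4 and TBX2 were highest, weighs on these values. No r was computed without that group. TBX2, TBX4 and TBX20 correlated with each other at 0.83 to 0.89, and TBX3 with TBX4 at 0.65. The genes most like TBXT were GDF3 (r = 0.84), a TGF-beta family ligand, ATG101 (0.83), PPM1H (0.83), POU5F1 (0.82), the pluripotency factor, and SPOCK1 (0.82). For TBX4 they were OLFML2B (0.94), ANGPT2 (0.93), an angiopoietin, FLRT2 (0.91), EGFR (0.91), the receptor of the EGF in the medium, and ARHGAP31 (0.90). For TBX2 they were PLEKHA6 (0.95), HOXB2 (0.94), PRDM6 (0.91), CMKLR1 (0.91) and TBX20 (0.89), and for TBX3 UAP1L1 (0.94), NUDT4 (0.94), SAT2 (0.92), SLCO4C1 (0.92) and GATA2 (0.91). Of these 20 genes 5 were also among the first 5 by Spearman's rho. In the RefSeq annotation of the marmoset assembly calJac240_pri, which is not the build of the table, no protein-coding gene lies between TBX2 and TBX4, nor between TBX3 and TBX5. TBX2 and TBX4 both rose in the BLSE course, whereas TBX5 was at most 0.76 TPM in any library and TBX3 reached 289.9 TPM.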

How the data were processed

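RNA-seq levels were taken from the deposited table of TPM values. The authors made it from poly(A) RNA of cells collected on a cell sorter, whether or not chosen by a marker, in directional single-end libraries. They used STAR and RSEM on the Callithrix_jacchus_cj1700_1.1 assembly, and the table is limited to genes shared with human. The table was used as deposited, with gene symbols from its own column; 14812 genes and 54 libraries matched the labels by name. log2(TPM + 1) of the 11197 genes with at least 1.5 in at least 1 library was fitted in limma 3.58.1 (R 4.3.3) with an intensity trend and 1 mean per group, which left 27 residual degrees of freedom. Tests were two-sided with Benjamini-Hochberg adjustment over these genes. A count test was not used, since TPM are not counts. The smallest two-sided p of an exact permutation test on 2 and 2 libraries is 0.33, so the spread was pooled over groups. The labels number the libraries as replicates of 1 line, and p-values measure the spread between them. Depth is unknown, and no interval for counting error can be given.

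A call required a change of over 4-fold with adjusted p below 0.01, and the compared libraries had to average above 1.5 in log2 level. In simulated data 200 genes of mean log2 level above 3 were changed by 3, up or down. The fit recovered 197 of them and called 0 of 10997 unchanged genes, of which 2 had an adjusted p under 0.01. The noise was normal, with the same spread for a gene in every group, as the fit assumes. The simulation thus does not cover changes in genes of lower level or groups of uneven spread. The members and lists were chosen with earlier results of these data known, so no count over them is independent support. Genes named are the members, the other T-box genes, the 5 genes most like TBXT, TBX2, TBX3 and TBX4 by Pearson's r over the 27 group means, and up to 4 called genes of each list with the largest change, of which 1 is not reported here. Alternatives were a pseudocount of 0.1, no filter, quantile normalization, median-ratio scaling, a fit without the intensity trend, only the libraries compared, a replicate block, and leaving out each library.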

Additional observations from a re-analysis of the deposited data

Results flagged for a closer look

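The effect of enforced SOX17 at 48 h differed from that at 12 h in a direct test for TBXT and TBX4. For TBXT the change of the effect was 2.11 on the log2(TPM + 1) scale (limma adjusted p = 0.0083) and for TBX4 it was -3.26 (adjusted p = 5.1e-05), both with all cells taken at both times. The TBXT value did not pass with a pseudocount of 0.1, without the filter or without the intensity trend (adjusted p from 0.0123 to 0.027), nor in any fit without 1 of the 8 libraries (0.0131 to 0.058), whereas the TBX4 value did not pass with a pseudocount of 0.1 (adjusted p = 0.0169).

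The effect of BMP4 beside SOX17 also differed between 48 h and 12 h for TBX2, by 1.79 (adjusted p = 0.0066), and for TBX20, by 2.92 (adjusted p = 0.00095). The TBX2 value did not pass with a pseudocount of 0.1 (adjusted p = 0.153), under either other scaling (adjusted p = 0.0121 and 0.0158) or in 7 of 8 fits without 1 library. The TBX20 value did not pass with a pseudocount of 0.1 (adjusted p = 0.137) or without SOX17 + BLSE 48 h replicate 1 (adjusted p = 0.0145). In SOX17 + LSE, TBX2 stayed between 0.32 and 0.74 TPM at 12, 24 and 48 h and TBX20 between 0.55 and 1.63 TPM, so that most of either difference lies in the SOX17 + BLSE libraries at 48 h. The same change of effect gave no member past the test for BMS493. Groups held 2 libraries each, so no single library could be tested as an outlier.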

How the results depend on the processing

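Among 306 fold changes of members, none that passed the test changed sign under any alternative. Of 3438 refitted values 3211 kept their side of the threshold, 197 no longer passed and 30 newly passed, and 107 values that had not passed changed sign. Of the 306, 83 no longer passed when only the libraries compared were fitted, which leaves fewer residual degrees of freedom. The number of members called moved as follows. For BLSE + IWR1 at 96 h against pre-treated cjESCs it was 2, and 1 with a pseudocount of 0.1 or only the libraries compared (1 to 2 leaving out 1 library). For SOX17 + BLSE against BLSE at 48 h it was 2, and 1 under median-ratio scaling (1 to 2). With only the libraries compared it went from 3 to 0 for SOX17 + BLSE against SOX17 + LSE at 48 h (1 to 3 leaving out 1 library), from 2 to 0 for BLSE + IWR1 against BLSE at 48 h (1 to 3) and from 1 to 0 for day 20 against day 6 (1 in each). The same fit took it to 0 from 2 for PESFA against DK20FA, 2 and 3 for BLSE at 12 and 24 h, 1 each for SOX17 + BLSE against SOX17 + LSE at 12 and 24 h, 2 for BLSE + IWR1 at 48 h against pre-treated cjESCs, 4 for SOX17 + BLSE at 96 h against 48 h and 3 for BLSE + IWR1 at 96 h against 48 h. For BLSE + IWR1 + BMS against BLSE + IWR1 at 48 h it was 0 to 1 leaving out 1 library. For SOX17 + BLSE against BLSE at 96 h it was 4 throughout. Spearman's rho kept 5 of the 20 most alike genes and a pseudocount of 0.1 kept 15.

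Over all genes, fitting only the libraries compared took the calls from 685 to 417 for BLSE at 96 h, 226 to 97 for SOX17 at 48 h, 114 to 2 for BMP4 at 48 h, 267 to 0 for BLSE + IWR1 against BLSE at 48 h, 27 to 0 for BMS493 at 48 h, 257 to 0 for day 20 and 4 to 0 for the pre-treatment, where 34 genes had an adjusted p under 0.01 and 1382 an unadjusted p under 0.05. Leaving out 1 library gave 2 to 33 calls for the pre-treatment, and up to 48 for BMS493 at 48 h. A pseudocount of 0.1 gave 2 for the pre-treatment. The split of SOX17 calls at 48 h was 133 higher and 93 lower, 105 and 115 under median-ratio scaling and 105 and 110 under quantile normalization, and at 96 h 531 and 441 against 416 and 552.

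Replicate numbers share no batch in the labels. The correlation of same-numbered libraries' deviations ran from -0.21 to 0.289 over 48 comparisons, above 0.1 in 9. A replicate block called 2 members for SOX17 + BLSE against BLSE at 48 h and 4 at 96 h, as without it, and over the 306 values 303 kept their side, 1 no longer passed and 2 newly passed. TBXT from 48 to 96 h in SOX17 + BLSE was the former (adjusted p = 0.0106), and the latter were TBX6 over the same step (adjusted p = 0.00965) and TBX3 in BLSE + IWR1 against SOX17 + BLSE at 96 h (adjusted p = 0.00802).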
